A study of Drosophila melanogaster with 24 samples.

Results

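Polycomb group genes encode proteins that keep developmental genes silent in cells where they were not switched on early in the embryo. Their products work as complexes on chromatin: Polycomb repressive complex 1 (PRC1) binds methylated histone H3 and marks histone H2A with ubiquitin, PRC2 adds methyl groups to lysine 27 of histone H3, and the Pho repressive complex (PhoRC) carries a DNA-binding subunit that recognises Polycomb response elements. In *Drosophila* the mothers load RNA of many of these genes into the egg, and the zygotic copies take over during the first hours of development. The 10 genes followed here were *Pc*, *Psc*, *ph-p*, *ph-d* and *Sce* (PRC1), *E(z)*, *esc* and *Su(z)12* (PRC2), *pho* (PhoRC) and *Scm*, taken by their FlyBase symbols, a rule that used no measured value. All 10 of them were found among the 17559 gene identifiers of the count table, and all 10 passed the filter on low counts that left 10003 genes to be tested.

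RNA-seq was available for whole *Drosophila melanogaster* embryos collected 2 to 4 h after egg laying and grown at 25°C, in 6 genotypes with 4 numbered replicates each, 24 libraries in all. Control embryos, labelled *tub-GAL4/+*, came from mothers with the maternally active driver alone. HDAC3 shRNA embryos (*tub-GAL4/shRNA HDAC3*) came from mothers in which this driver expressed a short hairpin against *HDAC3*, a histone deacetylase. In the 4 rescue genotypes (WT, Y303F, K26A and HEBI) the mothers carried the same driver and hairpin plus an shRNA-resistant *HDAC3* transgene. It encoded the wild-type, Y303F, K26A or HEBI protein under the promoter of *HDAC3* at 1 common genomic landing site. The driver was active in the mother's germ line, and the mothers of the 5 genotypes other than control all carried the hairpin. In the study's hatching assay such females were mated to males of the same cross. Embryos of a pool could then differ in the elements they inherited. Each replicate pooled many embryos, and any *HDAC3* RNA made by the zygote remained possible. In such pools fewer cells expressing a gene and less RNA per cell cannot be told apart.

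Library totals ran from 9987223 counts in rescue Y303F replicate 2 to 26573692 counts in HDAC3 shRNA replicate 4. The knockdown itself could not be checked in these counts, because all 1660 exon bases of *HDAC3* also belong to *CG45100* and no read was assigned to *HDAC3* in any of the 24 libraries. The study reported almost no HDAC3 protein on western blots and little *HDAC3* RNA in HDAC3 shRNA embryos. The replicate numbers differed in embryo stage markers. Of 10 early blastoderm genes, *Sry-alpha*, whose exon bases are all shared with *Sry-beta*, was at 0 in every library. In replicates 1 and 2 the list summed to between 1545 and 3901 CPM (counts per 1e6 counts of the scaled library). In replicates 3 and 4 it summed to between 1013 and 2825 CPM. Rescue K26A went the other way, with means of 2164 and 2424 CPM in these pairs of replicates, and the HDAC3 shRNA ranges overlapped. The 7 maternal RNAs summed to between 4403 and 7245 CPM in replicates 1 and 2 against 2361 to 4385 CPM in replicates 3 and 4, with the ranges touching nowhere. The 4 neuronal markers summed to between 13.2 and 51.6 CPM in replicates 1 and 2 against 43.7 to 107 CPM in replicates 3 and 4. Markers of later tissue were present beside the labelled stage: 5 late muscle genes summed to between 11.8 and 1302 CPM over the libraries, 6 late epidermis genes to between 1.58 and 412 CPM, and 3 late gut genes reached 138 CPM in a control library of replicates 3 and 4. The 5 eggshell genes stayed between 0.141 and 17.5 CPM.

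Of the 10 genes, *Sce* had the highest level per length and *ph-d* the lowest. *Sce* encodes the RING-type ubiquitin ligase of PRC1 that modifies H2A, and its mean over all libraries was 100.5 CPM per kb of exon not shared with another gene. *pho*, which encodes the zinc finger DNA-binding protein of PhoRC, followed with 48.9 CPM per kb. *esc*, the WD-repeat subunit of PRC2, stood at 36.0 CPM per kb.

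*Su(z)12*, a zinc finger subunit of PRC2, had 23.0 CPM per kb and *E(z)*, the methyltransferase of PRC2, had 21.9 CPM per kb. *Psc*, a PRC1 subunit that compacts nucleosome arrays, had 18.6 CPM per kb, and *Scm*, which encodes a SAM domain protein that associates with PRC1, had 15.1 CPM per kb. *Pc*, whose chromodomain binds methylated H3, had 13.0 CPM per kb, while the tandem genes *ph-p* and *ph-d*, which encode the polymerising SAM domain subunits of PRC1, had 10.2 and 8.70 CPM per kb. The PRC1 genes took both ends of this order.

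Not every step of this order was larger than the spread. *Sce* exceeded *pho* in 23 of 24 libraries, *pho* exceeded *esc* in 16, *esc* exceeded *Su(z)12* in 23 and *Su(z)12* exceeded *E(z)* in 17. *E(z)* lay above *Psc* in only 12 libraries and *Scm* above *Pc* in only 13, so neither pair was separated over all 24. Both orders changed with the replicate number. *E(z)* lay above *Psc* in every library of replicates 3 and 4 and in none of replicates 1 and 2. *Scm* lay above *Pc* in every library of replicates 1 and 2. In replicates 3 and 4 it did so only in HDAC3 shRNA replicate 3. *Psc* exceeded *Scm* in 20, *Pc* exceeded *ph-p* in 21 and *ph-p* exceeded *ph-d* in 19. The ratio of the highest to the lowest library ranged from 1.83 for *Sce*, the steadiest of the 10, to 5.69 for *E(z)*.

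**Figure D1:**
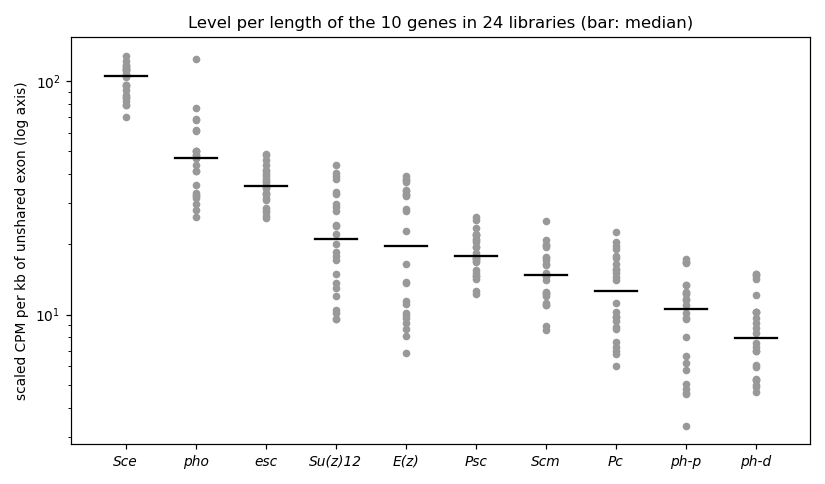
Level of each gene per kb of unshared exon in scaled CPM on a log axis; each point is 1 of 24 libraries and the bar is their median. *Sce* lies highest, and *E(z)*, *ph-p* and *Su(z)12* spread widest among the genes below *pho*.

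The genes lie on 5 chromosome arms and the small chromosome 4, all on the minus strand of the dm6 assembly. *pho* is on chromosome 4 (1172469 to 1181628), *Sce* on 3R (27680431 to 27682029), *E(z)* on 3L (10634575 to 10638130) and *esc* on 2L (11827204 to 11829405). *ph-d* (X, 2115727 to 2123286) and *ph-p* (X, 2126210 to 2138371) are neighbours and close copies, so reads from their similar stretches could be lost or split between them. Small parts of *Pc*, *E(z)* and *Scm* overlap exons of *CG7632*, *CG34001* and *SpdS*, which left 97.6%, 98.6% and 92.3% of their exon bases to be counted.

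Several of these genes were split by replicate number in every genotype. The share of all genes split this way was not counted, so the splits below are not read as particular to them. *E(z)* had 43.2, 26.1, 72.7 and 88.9 CPM in control replicates 1 to 4, and 21.2, 18.0, 60.0 and 74.0 CPM in HDAC3 shRNA replicates 1 to 4. Replicates 3 and 4 were higher than both of the others in each genotype, by 2.33-fold in control to 3.80-fold in rescue K26A. *Su(z)12* (81.8, 49.4, 137 and 118 CPM in control) was likewise higher in replicates 3 and 4 in 6 of 6 genotypes, by 1.94- to 2.68-fold.

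3 PRC1 genes showed the same split in 6 of 6 genotypes. *Pc* had 27.0, 17.5, 39.4 and 36.1 CPM in control and was 1.70- to 2.35-fold higher in replicates 3 and 4 across genotypes. *ph-d* was 1.58- to 2.22-fold higher and *ph-p* 1.37- to 2.97-fold higher. Their 2 groups of replicates did not overlap within any genotype.

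*Sce* and *pho* went the other way. *Sce* had 165, 174, 108 and 129.8 CPM in control, and replicates 3 and 4 lay below both of the others in 5 of 6 genotypes, at 0.703 to 0.910 of their mean over the 6. *pho* also had lower replicates 3 and 4 in 5 of 6 genotypes, at 0.533 to 0.791 of the mean of replicates 1 and 2. The exception was rescue K26A for *Sce* and HDAC3 shRNA for *pho*. *esc* was higher in replicates 3 and 4 in 5 genotypes, *Scm* was lower in 2, and *Psc* was split this way in none.

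The test for any difference among the 4 replicate numbers, with genotype in the model, was passed by 10 of 10 genes (edgeR quasi-likelihood F-test with Benjamini-Hochberg adjustment), the adjusted p ranging from 3.9e-12 for *E(z)* to 0.00173 for *esc*. Because 84% of all tested genes passed it too, the count does not set these genes apart. The summed maternal RNAs and neuronal markers given above, and the early blastoderm genes in most genotypes, moved with the same replicate numbers. Their part in these differences was not tested. What the numbers stand for (a collection, a day or a preparation) is not stated in the labels.

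**Figure D2:**
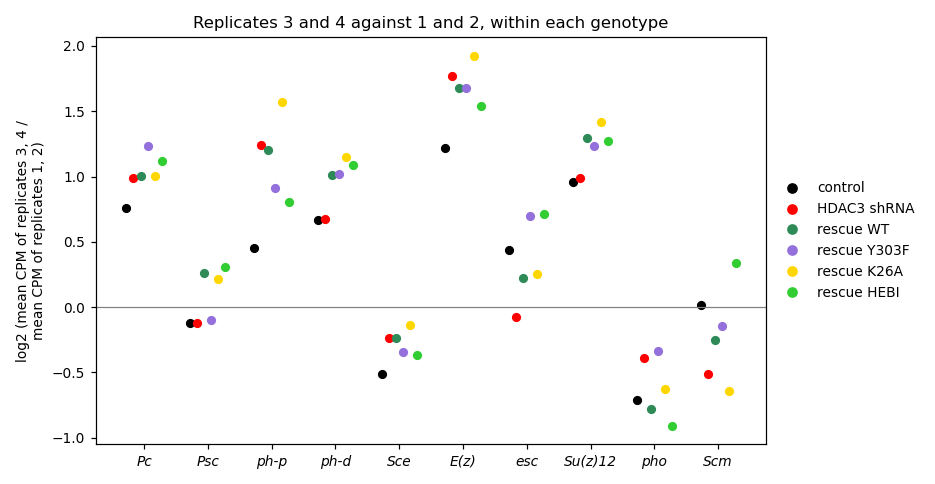
Log2 ratio of the mean CPM of replicates 3 and 4 to that of replicates 1 and 2; each point is 1 genotype. All 6 points lie above 0 for *Pc*, *ph-p*, *ph-d*, *E(z)* and *Su(z)12*, and all 6 lie below 0 for *Sce* and *pho*.

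The first comparison, HDAC3 shRNA against control, asked what loss of maternal *HDAC3* did to the RNA of these genes. *pho* showed the largest difference. It had 119, 119, 78.7 and 66.7 CPM in control replicates 1 to 4 and 111, 294, 163 and 146 CPM in HDAC3 shRNA replicates 1 to 4. Replicates 2, 3 and 4 of the knockdown lay 1.05 to 1.30 log2 units above the same-numbered control, whereas replicate 1 lay at -0.10. The group means were 96.0 ± 27.4 and 179 ± 80.1 CPM (SD, n = 4), and the ranges overlapped through knockdown replicate 1.

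*ph-p* showed the largest decrease. It had 79.2, 45.7, 86.5 and 84.3 CPM in control and 33.0, 23.1, 66.9 and 65.8 CPM in the knockdown. All 4 knockdown libraries were below their same-numbered control, by more in replicates 1 and 2 (log2 ratios -1.27 and -0.99) than in replicates 3 and 4 (-0.37 and -0.36). Its neighbour *ph-d* (43.0, 32.3, 63.1 and 56.2 CPM in control against 36.7, 28.7, 53.5 and 51.0 CPM) was also lower in 4 of 4 pairs, by only 0.14 to 0.24 log2 units.

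The 2 tandem copies therefore had different ratios. Per kb, *ph-p* over *ph-d* was 1.64, 1.26, 1.22 and 1.33 in control and 0.799, 0.714, 1.11 and 1.15 in the knockdown, with no overlap between the groups. This ratio was looked at after the values of both genes were known, and is given with no test.

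Among the PRC2 genes, *E(z)* was lower in the knockdown in 4 of 4 same-numbered pairs, by 0.26 to 1.02 log2 units. *Su(z)12* had 81.8, 49.4, 137 and 118 CPM in control against 56.0, 39.3, 98.6 and 90.7 CPM in the knockdown, lower in 4 of 4 pairs by 0.33 to 0.55 log2 units. *esc* did not have 1 direction: the knockdown had 61.4, 63.1, 52.7 and 65.1 CPM against 44.0, 46.8, 55.9 and 67.1 CPM, higher in replicates 1 and 2 and slightly lower in replicates 3 and 4.

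The other 4 genes each had 1 direction in 4 of 4 pairs. *Sce* had 198, 187, 147 and 179.8 CPM in the knockdown, 0.11 to 0.47 log2 units above the same-numbered controls. *Scm* had 78.5, 74.6, 62.1 and 45.3 CPM against 52.8, 42.0, 54.7 and 41.2 CPM in control, higher in 4 of 4 pairs by 0.14 to 0.83 log2 units. *Psc* was 0.20 to 0.21 log2 units higher in 4 of 4 pairs, and *Pc* was lower in 4 of 4 by 0.09 to 0.56. The ranges of knockdown and control overlapped for every one of the 10 genes. These ranges include the split by replicate number. The share of all genes with overlapping ranges was not counted, so the overlap is not read as particular to these genes.

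**Figure D3:**
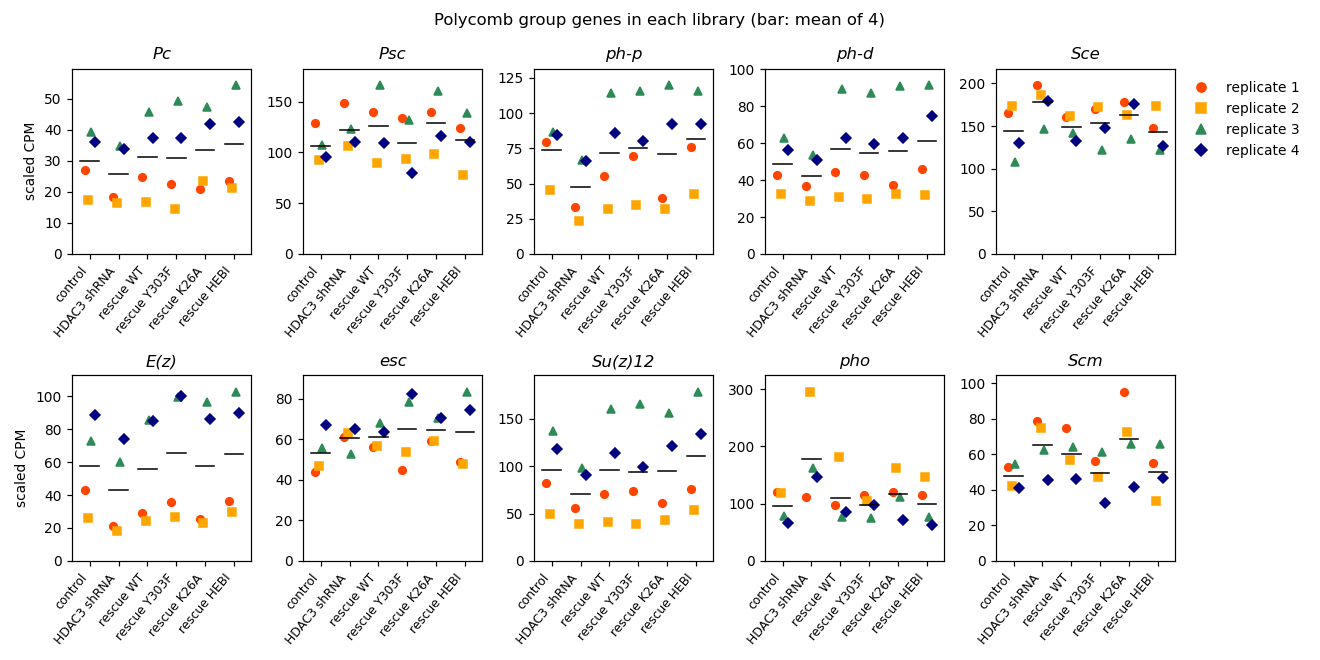
Scaled CPM of each gene in each library, by genotype; colour and shape give the replicate number and the bar is the mean of 4. Replicates 3 and 4 sit above 1 and 2 for *Pc*, *ph-p*, *ph-d*, *E(z)* and *Su(z)12* in every genotype, and HDAC3 shRNA replicate 2 is the highest library for *pho* at 294 CPM.

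Without the replicate number in the model, 0 of 10 genes passed an adjusted p of 0.05 (edgeR quasi-likelihood test, Benjamini-Hochberg over 10003 genes), where 10% of all tested genes passed. 1 of the 10 had an unadjusted p below 0.05, *pho*, with a log2 fold change of 0.90 (SE 0.34, adjusted p = 0.0973), and DESeq2 also called 0 with 1 below an unadjusted 0.05. None reached the 2-fold change that the study required, which 8.37% of all genes reached together with the adjusted p. The median log2 difference of the 10 genes was -0.01, against 0.01 over all tested genes.

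Libraries of the same number deviated together in these data, so the fit with replicate number as a block is given beside it. With the replicate block 6 of 10 genes passed, against 53.9% of all tested genes, so the share of the 10 was close to the background. The 3 that fell, where 26.9% of all genes did, were *ph-p* (log2 fold change -0.76, SE 0.16, edgeR adjusted p = 0.000926), *E(z)* (-0.54, SE 0.12, edgeR adjusted p = 0.00154) and *Su(z)12* (-0.43, SE 0.10, edgeR adjusted p = 0.00222). The 3 that rose, where 27% of all genes did, were *pho* (0.88, SE 0.20, edgeR adjusted p = 0.00132), *Sce* (0.32, SE 0.09, edgeR adjusted p = 0.00459) and *Scm* (0.44, SE 0.16, edgeR adjusted p = 0.0261). Again 0 of 10 were past 2-fold, where 20.1% of all genes were.

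*Pc* (log2 fold change -0.24), *Psc* (0.20), *ph-d* (-0.19) and *esc* (0.21) did not pass, with blocked adjusted p of 0.101, 0.119, 0.144 and 0.186. The calls of *ph-p*, *Sce*, *E(z)*, *Su(z)12* and *pho* held whichever 1 of the 24 libraries was left out. For *Scm* the call was lost when any of 5 libraries was left out (control replicates 1, 2 and 3, HDAC3 shRNA replicate 2, rescue Y303F replicate 1), with an adjusted p of up to 0.164, and also when only HDAC3 shRNA and control were fitted. Library totals without further scaling moved the median of all genes to -0.20 in the knockdown and ended the blocked calls of *Sce* and *Scm*, and without the block they turned *Psc* and *esc* to -0.0066 and -0.048.

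**Figure D4:**
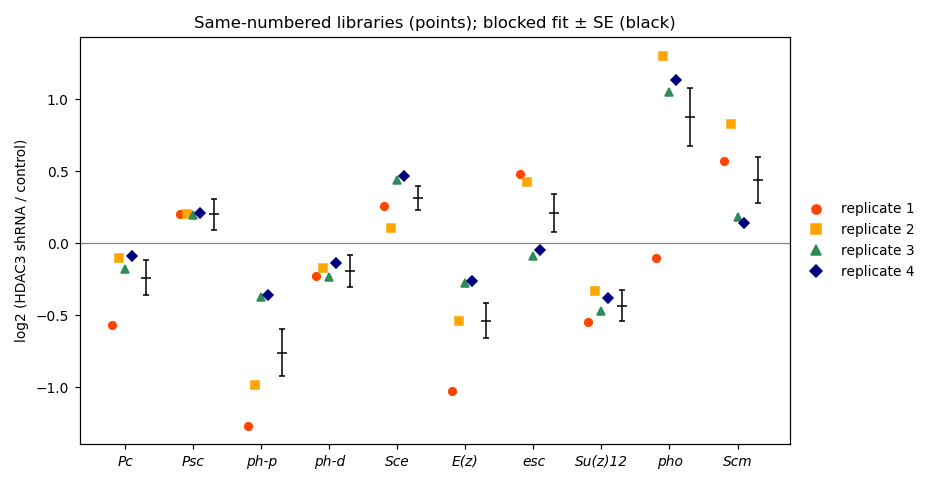
Log2 ratio of HDAC3 shRNA to control for each gene; coloured points are same-numbered libraries and the black bar is the fit with replicate number as a block, ± SE. *Su(z)12* and *Psc* have nearly equal ratios in all 4 pairs, *ph-p*, *E(z)*, *esc* and *Scm* differ between replicates 1, 2 and replicates 3, 4, and replicate 1 of *pho* stands alone at -0.10.

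Whether the knockdown difference itself was unequal between replicates 1 and 2 and replicates 3 and 4 was tested across all genes. In the model without a block 0 of 10 genes passed, against 0.03% of all genes, and 1 (*esc*) had an unadjusted p below 0.05. With the block 2 of 10 genes passed, against 10% of all genes. The decrease of *ph-p* was 0.76 log2 units smaller in replicates 3 and 4 (SE 0.21, edgeR adjusted p = 0.0302), and the knockdown difference of *esc* was 0.52 lower on the log2 scale there (-0.52, SE 0.15, edgeR adjusted p = 0.0472). *Scm* (-0.55, adjusted p = 0.0781) and *E(z)* (0.53, adjusted p = 0.0992) did not pass in the edgeR fit.

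Stage markers also moved with the knockdown. The 7 maternal RNAs summed to between 3904 and 7245 CPM in HDAC3 shRNA and 2476 to 5515 CPM in control, and 5 of 7 were higher and none lower in the blocked edgeR fit. The 8 gastrula patterning genes summed to between 248 and 875 CPM against 581 to 830 CPM, with 6 of 8 lower, and the 6 late epidermis genes were all lower, summing to between 1.58 and 15.1 CPM against 28.0 to 412 CPM. Of the early blastoderm genes 4 of 9 were lower and 0 higher in the blocked fit. Their sum averaged 1830 CPM in HDAC3 shRNA against 3544 CPM in control in replicates 1 and 2. In replicates 3 and 4 it went the other way, 1415 against 1037.5 CPM. In the blocked fit 27% of all genes were higher and 26.9% lower. In the fit without the block, 0 of 7 maternal, 0 of 8 gastrula patterning and 1 of 9 early blastoderm genes passed. All 6 of 6 late epidermis genes did, where 10% of all genes passed. The part of these markers in the differences of the Polycomb group genes was not tested. *E(z)*, *ph-p* and *Su(z)12*, which fell in the knockdown, were higher in replicates 3 and 4, where maternal RNA was lower, and *pho* and *Sce*, which rose in the knockdown, had lower mean levels in those replicates. *Scm*, which also rose, was lower in both replicates 3 and 4 in only 2 of 6 genotypes, at 0.640 to 1.26 of the mean of replicates 1 and 2 over the 6. *Pc* and *ph-d*, without a blocked call, were lower in the knockdown in 4 of 4 pairs. Both were higher in replicates 3 and 4 in 6 of 6 genotypes. *esc*, higher in those replicates in 5 of 6 genotypes, was higher in the knockdown in 2 of 4 pairs. *Psc*, split in none, was higher in the knockdown in 4 of 4. Whether these directions are linked was not tested.

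The rescue genotypes address whether an *HDAC3* transgene moved these genes away from the knockdown. Stage markers also differed between rescue and knockdown. In the blocked fit against HDAC3 shRNA, 4, 6, 2 and 5 of 7 maternal RNAs were lower in rescue WT, Y303F, K26A and HEBI. Of 8 gastrula patterning genes, 3, 6, 1 and 8 were higher in the same order. In either direction 32.1%, 36.2%, 8.04% and 42.5% of all genes passed. Without the block none of these markers passed. Their part in the differences below was not tested. In rescue WT, *pho* had 97.9, 182, 77.3 and 85.3 CPM, below the same-numbered knockdown library in 4 of 4 pairs. *ph-p* had 55.1, 31.9, 114 and 85.5 CPM and *E(z)* 29.1, 24.3, 85.5 and 84.9 CPM, each above the same-numbered knockdown library in 4 of 4 pairs. Without the block 0 of 10 genes passed in rescue WT against HDAC3 shRNA (1.22% of all genes did), 0 had an unadjusted edgeR p below 0.05, and DESeq2 also called 0.

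With the block 6 of 10 genes passed, against 32.1% of all genes. The 4 higher, against 16.8% of all genes, were *ph-p* (log2 fold change 0.58, SE 0.16), *E(z)* (0.39, SE 0.12), *Su(z)12* (0.36, SE 0.10) and *ph-d* (0.35, SE 0.11). The 2 lower, against 15.3% of all genes, were *pho* (-0.72, SE 0.20) and *Sce* (-0.25, SE 0.08). The edgeR adjusted p of the 6 genes ran from 0.0107 for *pho* to 0.0316 for *Sce*. Single libraries decided part of this count: without HDAC3 shRNA replicate 1 it was 3 of 10 and without HDAC3 shRNA replicate 3 it was 2 of 10. Leaving out HDAC3 shRNA replicate 2 ended the call of *pho*, with an adjusted p of 0.056. The call of *ph-d* also ended without rescue WT replicate 3, that of *E(z)* without rescue WT replicate 3 or 4, and that of *Sce* with any of 9 libraries left out and also with library totals alone or only these 2 groups in the fit.

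Rescue Y303F carries a change in the catalytic site. Per the study, endogenous *HDAC3* RNA was present in these embryos beside that of the transgene, and their values do not represent the mutant protein alone. *pho* had 115, 104, 75.1 and 98.2 CPM there, lower than the same-numbered knockdown library in 3 of 4 pairs. *E(z)* had 35.8, 26.8, 99.4 and 100.3 CPM, higher in 4 of 4 pairs. Without the block 0 of 10 genes passed against HDAC3 shRNA (0.82% of all genes), 1 of them at an unadjusted edgeR p below 0.05, and DESeq2 called 0.

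With the block 7 of 10 genes passed, against 36.2% of all genes. 4 were higher (17.7% of all genes): *ph-p* (log2 fold change 0.68), *E(z)* (0.62), *Su(z)12* (0.32) and *ph-d* (0.30). 3 were lower (18.5% of all genes): *pho* (-0.80), *Scm* (-0.42) and *Sce* (-0.22). Their edgeR adjusted p lay between 0.000963 for *E(z)* and 0.048 for *Sce*. The count was 3 of 10 when only these 2 groups were fitted and also without HDAC3 shRNA replicate 1, and it was 4 of 10 without HDAC3 shRNA replicate 3 or rescue Y303F replicate 1 or 3. *Scm* also lost its call without HDAC3 shRNA replicate 2, rescue WT replicate 4 or rescue Y303F replicate 2 or 4, *ph-d* without HDAC3 shRNA replicate 4, and *Sce* with any of 9 libraries left out. *ph-p*, *E(z)* and *pho* kept their calls in every one of those fits.

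Rescue K26A carries a change modelled on one that weakens corepressor binding in mammals. The study found deacetylase activity comparably reduced for Y303F, K26A and HEBI in cultured fly cells. Binding to the corepressor SMRTER was weakly reduced for K26A and strongly reduced for HEBI there. Rescue K26A was the genotype without a call against the knockdown. *ph-p* had 39.7, 31.6, 119.7 and 92.2 CPM and *pho* had 119.5, 162, 111 and 70.5 CPM. Without the block 0 of 10 genes passed (0.21% of all genes), 0 at an unadjusted edgeR p below 0.05 and 0 in DESeq2. With the block also 0 of 10 passed, against 8.04% of all genes, while 6 had an unadjusted p below 0.05. The blocked log2 fold changes were 0.53 for *ph-p*, 0.38 for *E(z)*, 0.33 for *Su(z)12* and -0.62 for *pho*, with edgeR adjusted p of 0.0514, 0.0628, 0.056 and 0.0604.

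Rescue HEBI, whose changes are modelled on ones that abolish corepressor binding in mammals, had the largest differences from the knockdown among the rescues for *ph-p*, *E(z)*, *Su(z)12*, *ph-d* and *pho* in the blocked fit, although none of these passed a test against rescue WT. Without the block rescue Y303F was further from the knockdown for *E(z)* (0.60 against 0.58) and *pho* (-0.86 against -0.84). *Su(z)12* had 76.2, 53.5, 178 and 134 CPM, above the same-numbered knockdown library in 4 of 4 pairs by 0.45 to 0.85 log2 units. *pho* had 115, 146, 76.7 and 62.3 CPM, lower in 3 of 4 pairs. Without the block 0 of 10 genes passed (2.19% of all genes), 1 at an unadjusted edgeR p below 0.05 and 0 in DESeq2.

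With the block 7 of 10 genes passed, against 42.5% of all genes. The 5 higher, against 21.7% of all genes, were *ph-p* (log2 fold change 0.84, SE 0.16), *E(z)* (0.63, SE 0.12), *Su(z)12* (0.57, SE 0.10), *ph-d* (0.45, SE 0.11) and *Pc* (0.43, SE 0.12). The 2 lower, against 20.7% of all genes, were *pho* (-0.86, SE 0.20) and *Sce* (-0.32, SE 0.09). The edgeR adjusted p of these 7 ran from 0.000323 for *Su(z)12* to 0.00822 for *Pc*, and each call held whichever 1 library was left out. That of *Sce* was lost when only these 2 groups were fitted.

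Set against control instead of the knockdown, the rescues differed little. Without the block 0 of 10 genes passed in rescue WT (0.44% of all genes), rescue Y303F (0.92%), rescue K26A (3.94%) or rescue HEBI (0.66%), with 0 at an unadjusted edgeR p below 0.05 and 0 in DESeq2 in each. With the block 0 of 10 passed in rescue WT (5.31% of all genes), rescue Y303F (12.7%) and rescue HEBI (9.01%), of which 0, 0 and 1 had an unadjusted p below 0.05. In rescue K26A 1 of 10 passed, against 33.8% of all genes and 18.6% in that direction: *Scm*, with 94.8, 72.7, 66.0 and 41.3 CPM, was 0.49 log2 units above control (SE 0.16, edgeR adjusted p = 0.0232). This call was lost when any 1 of 10 libraries was left out (control replicates 1, 2 and 3, replicates 1 and 2 of rescue WT, Y303F and K26A, and rescue HEBI replicate 1) and when only these 2 groups were fitted, with an adjusted p of up to 0.181 among the 10. It was lost with library totals alone as well, where the 3 genes called were *ph-p*, *E(z)* and *Su(z)12*, all lower than in control.

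The rescues share the control and the knockdown libraries, so their differences are set side by side and not counted as separate evidence. For *pho*, the blocked log2 difference from the knockdown was -0.72 in rescue WT, -0.80 in rescue Y303F, -0.62 in rescue K26A and -0.86 in rescue HEBI. For *ph-p* it was 0.58, 0.68, 0.53 and 0.84 in the same order. Knockdown replicate 2, with 294 CPM of *pho* and 23.1 CPM of *ph-p*, enters each of these values.

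**Figure D5:**
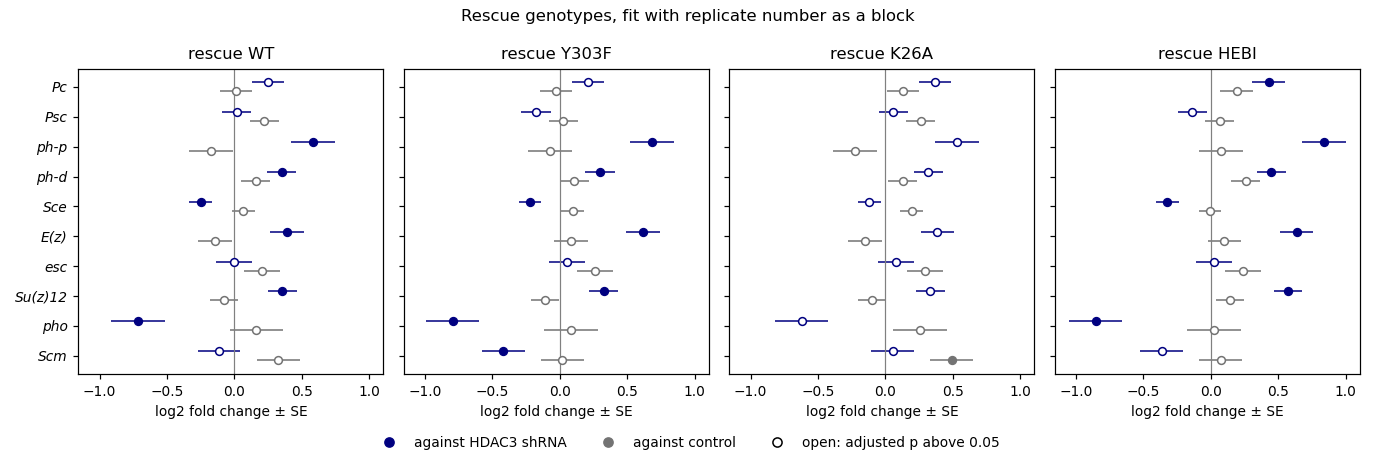
Log2 fold change ± SE of each gene in the 4 rescue genotypes, against HDAC3 shRNA (blue) and against control (grey), from the fit with replicate number as a block; filled points passed an adjusted p of 0.05. Filled blue points occur in rescue WT, Y303F and HEBI and in none of rescue K26A, and the only filled grey point is *Scm* in rescue K26A at 0.49.

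The mutant transgenes did not differ detectably from the wild-type one in any of the 10 genes. Against rescue WT, 0 of 10 genes passed in rescue Y303F (0.02% of all genes without the block, 0.89% with it), rescue K26A (0.13% and 3.61%) or rescue HEBI (0.04% and 1.69%). At an unadjusted edgeR p below 0.05 there were 0 without the block and 0, 0 and 1 with it, and DESeq2 called 0 in each. The largest of these blocked values was -0.31 for *Scm* in rescue Y303F, with an SE of 0.16.

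Over all 6 genotypes together, 0 of 10 genes passed the test for any difference without the block, where 5.36% of all genes did, and 0 had an unadjusted edgeR p below 0.05. With the block 7 of 10 passed, against 52% of all genes: *ph-p*, *ph-d*, *Sce*, *E(z)*, *Su(z)12*, *pho* and *Scm*. The edgeR adjusted p ran from 0.00332 for *E(z)* to 0.0301 for *Scm*, while *Pc* (0.0641), *Psc* (0.149) and *esc* (0.411) did not pass.

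3 of the genes have a close relative that can share their role. *phol*, which encodes a second DNA-binding protein of the *pho* type, had 60.6, 69.3, 51.6 and 51.2 CPM in control and 115, 122, 67.5 and 53.5 CPM in the knockdown. It was higher in 4 of 4 pairs, with a blocked log2 fold change of 0.55 (SE 0.20, edgeR adjusted p = 0.028) and 0.62 without the block (edgeR adjusted p = 0.242). In replicates 3 and 4 *pho* was 1.05 and 1.13 log2 units above control and *phol* 0.39 and 0.06, and whether the genes differed in this was not tested. *escl*, the relative of *esc*, stayed between 1.75 and 4.68 CPM, and *Su(z)2*, the relative of *Psc*, between 1.65 and 7.79 CPM over all libraries. *esc* exceeded *escl* per kb by a mean factor of 17.7 ± 1.36 in control and 21.8 ± 4.33 in the knockdown (SD, n = 4), and neither relative passed in the knockdown comparison with or without the block.

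The other Polycomb genes followed in parallel, 17 subunits and cofactors such as the accessory factors of PRC2 and the deubiquitinase complex, had 0 of 17 past the adjusted p in the knockdown without the block and a median log2 difference of 0.32, where 10% of all genes passed. With the block 8 of 17 rose (27% of all genes) and 1 fell (26.9%), *caly*, named after its values were seen. Of 18 trithorax group genes, whose products oppose Polycomb silencing, 1 passed without the block, *vtd*, a cohesin subunit, with a log2 fold change of 1.02 (SE 0.29, edgeR adjusted p = 0.027). With the block 12 of 18 rose and 1 fell, *kto*, also named after its values were seen, where 27% and 26.9% of all genes did. Of 7 genes for DNA-binding proteins linked to Polycomb response elements 0 passed without the block, and 2 rose and 1 fell with it, 3 of 7 against 53.9% of all genes.

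The genes that Polycomb proteins are known to silence, 28 of them with a value, were lower in the knockdown. Without the block 1 of 28 passed, where 10% of all genes did. It was *slou*, a homeobox gene of muscle founders, with a log2 fold change of -1.95 (SE 0.54, edgeR adjusted p = 0.0256). The list had a median of -0.53 against 0.01 over all tested genes. With the block 25 of 28 fell, where 26.9% of all genes did, and 1 rose, *cad*, named after its values were seen, with a median of -0.80. 8 were past 2-fold, all of them lower, where 1734 of 10003 genes were. The 6 with the lowest adjusted p were *slou* (-2.09), *so* (-1.39), *Dfd* (-1.08), *vg* (-1.26), *Dr* (-1.20) and *eya* (-1.02), the last 5 encoding regulators of head, eye, wing or nerve cord development, and the other two were *pb* (-1.27) and *H15* (-1.02). In rescue WT against the knockdown 20 of 28 were higher in the blocked fit (16.8% of all genes), in rescue Y303F 15 (17.7%), in rescue HEBI 24 (21.7%) and in rescue K26A 0 of 28 passed (8.04%). In edgeR without the block, 0 of 28 passed in each of the 4 rescues against HDAC3 shRNA. All 28 passed the test for replicate number, where 84% of all tested genes did. That test has no direction, and the part of the stage markers in this list was not tested.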

How the data were processed

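RNA-seq of 24 embryo libraries was used. Per the study, STAR mapped the reads to dm6 and featureCounts assigned them to genes. The table deposited by the authors holds these raw counts, 1 row for each FlyBase identifier. The versions of both tools, the gene annotation and the treatment of strand were not given in the sources used here. Symbols, positions and exon lengths were taken from the Ensembl annotation of the same assembly. Library totals of 9987223 to 26573692 counts limit the precision. Within a genotype, any 2 libraries differed by more than sampling noise (lowest chi-square per gene 26.3 over 36 pairs).

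The tests used edgeR 4.0.16 under R 4.3.3, with filterByExpr, trimmed mean of M-values (TMM) scaling, glmQLFit and glmQLFTest over all 24 libraries with 1 mean per genotype, 12 comparisons, and Benjamini-Hochberg adjustment over 10003 genes. A call needed an adjusted p of at most 0.05, and a 2-fold call a log2 fold change of 1 or more in either direction as well. CPM are counts per 1e6 of the TMM-scaled library. Replicate numbers from the labels paired the libraries: deviations from the genotype means correlated for all 60 same-numbered pairs (0.184 to 0.797, median 0.615), so the fit with the replicate block is given beside the fit without it. Per the study, each replicate was its own collection of embryos; what a number shared between genotypes marks is not stated.

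Alternatives were library totals alone, no filter on low counts, the 2 groups alone, DESeq2 1.42.0, replicates 1 and 2 or 3 and 4 alone, each library left out, and all exon bases for lengths. The alternatives to the blocked fit and the test of unequal knockdown differences were added after the data were seen. The tests were run on simulated counts in which each replicate effect was shared by all genotypes. That run does not cover knockdown differences that vary between replicates. The 10 genes and the lists of other genes were chosen with earlier results of these data known. All 10 genes were named, the close relatives *escl*, *phol* and *Su(z)2* with them, and from each list at most 6 genes with a 2-fold call in the knockdown; *caly*, *kto*, *cad*, *pb* and *H15* were named after their values were seen. *Dsp1*, *Adf1*, *wg* and *ap* of the lists were not analysed here.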

Additional observations from a re-analysis of the deposited data

How the results depend on the processing

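Without the replicate block 0 of 10 genes passed in each of the 12 comparisons, and no scaling, filter, tool or left-out library changed that. The replicate block raised the counts to 6 in HDAC3 shRNA against control, to 6, 7 and 7 in rescue WT, Y303F and HEBI against HDAC3 shRNA, to 1 in rescue K26A against control and to 7 for any difference among genotypes. It changed no other count among the 12 comparisons, and raised the count of unequal knockdown differences between replicates 1, 2 and 3, 4 from 0 to 2 of 10. In replicates 1 and 2 alone, 2 of the 10 genes passed in HDAC3 shRNA against control. Of 9514 genes tested there, 1270 were higher and 1659 lower. In rescue HEBI against HDAC3 shRNA 2 passed (1279 and 1318 of all genes), and in rescue K26A against control 1 (978 and 868). In replicates 3 and 4 alone, 1 of the 10 passed in each of the first 2 comparisons, at 2-fold as well. Of 10279 genes, 670 were higher and 739 lower in the first (185 and 598 at 2-fold). In the second 295 were higher and 499 lower (120 and 183 at 2-fold). In the fit with the block, leaving out 1 library gave 5 to 8 genes in HDAC3 shRNA against control, 2 to 6 in rescue WT, 3 to 7 in rescue Y303F and 7 to 8 in rescue HEBI against HDAC3 shRNA, and 0 to 1 in rescue K26A against control. With the 2 groups alone the blocked count was 3 in rescue Y303F against HDAC3 shRNA (1109 higher and 1255 lower of 9047 genes). It was 0 in rescue K26A against control. In that comparison library totals alone gave 3, *ph-p*, *E(z)* and *Su(z)12*, without *Scm*. There 475 of 10003 genes were higher and 2141 lower. Library totals alone turned *Psc* to -0.0066 and *esc* to -0.048 in the knockdown without the block, and replicates 3 and 4 alone turned *esc* to -0.10. The causes were not tested. The order of levels per kb was the same with all exon bases.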
